A study of Mus musculus with 4 samples.

Results

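Peroxisome genes are nuclear genes whose protein products build the peroxisome or work inside it. The data compared their mRNAs in mitochondria isolated from brown adipose tissue with a fraction labelled as that tissue without mitochondria. The set held 37 mouse genes picked by name as peroxins (the proteins that assemble the organelle), peroxisomal transporters and peroxisomal enzymes. All 37 were found among the 17259 genes of the deposited table. The question was whether these mRNAs were kept in the mitochondrial preparation more than a typical nuclear mRNA.

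Total RNA of wild-type brown adipose tissue, a fat depot that burns lipid to make heat, was sequenced in 4 libraries, 2 from isolated mitochondria and 2 from a non-mitochondrial fraction. The treatment label of the latter names tissue from which mitochondria had been taken, but its titles carry the word total and a supplement of the study speaks of whole lysates, so these libraries may be depleted tissue or whole tissue. The labels give no strain, age, sex or number of mice, while the study's methods describe crosses of its mutant lines to 129SV that also gave wild-type mice. Whether the replicates came from separate animals is not in the labels, so p-values measure only the spread between these libraries, which may be technical. For heart, the study describes mitochondria collected by differential centrifugation and treated with digitonin and RNase A before RNA was isolated. Centrifugation of this kind collects particles by size and density, peroxisomes included.

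Peroxisomes are single-membrane organelles that shorten very long chain and branched fatty acids by beta-oxidation, break down hydrogen peroxide and make the first intermediates of ether lipids. They are abundant in brown adipose tissue, where their shortened acyl chains can pass to mitochondria as carnitine esters for complete oxidation. Their matrix proteins are made on free ribosomes and imported after synthesis, in most cases through a short signal at the very C-terminus called PTS1, which the receptor Pex5 binds. The textbook form of PTS1 is serine, alanine or cysteine, then lysine, arginine or histidine, then leucine or methionine.

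The ends of the coding sequences show which members match this textbook form. They are printed here because mRNA near an organelle is often discussed together with the targeting of the protein. Other forms of the signal were not searched for, so a member without a match may still carry one. The last 3 codons before the stop spelled the textbook PTS1 in 10 of the 37 members (27%), against 69 of 12921 protein-coding genes of the table (0.534%). They were Ehhadh, Hsd17b4, Scp2, Ech1, Decr2, Pecr, Crot, Acot4, Acot8 and Gnpat. The sequences below are the last 30 bases of the coding sequence 5′ to 3′ from the GENCODE M21 transcripts of build GRCm38, with the last 3 sense codons in capitals and the stop codon after them. The first 5 carry the pattern and had ratios of levels above the typical one in the results that follow.
Crot, minus strand, chr5:8966852-8966881: atacagctgatgaacaccGCTCATCTTtag
Pecr, minus strand, chr1:72259348-72259377: gaatcttttaagaagaaaGCCAAGCTCtaa
Scp2, minus strand, chr4:108044750-108044779: cagcttcagccgggcaaaGCTAAGCTGtga
Ech1, plus strand, chr7:28832079-28832108: acaaaaagcatcaccttcTCCAAGCTCtga
Decr2, minus strand, chr17:26082876-26082905: gagtttgaatccttctctGCTAAGCTGtag
Ehhadh and Gnpat also carry the pattern and had low ratios. The ends of Cat, Acaa1b and Abcd2 do not match it, yet Cat and Acaa1b also had ratios above the typical one, while Abcd2 had the lowest.
Ehhadh, minus strand, chr16:21762084-21762113: ttggcaggaccccatagcAGCAAACTGtga
Gnpat, plus strand, chr8:124889286-124889315: ataggaaaaccagccactGCAAAACTAtaa
Cat, minus strand, chr2:103454756-103454785: atggctgcgaagggaaaaGCTAACCTGtaa
Acaa1b, minus strand, chr9:119148338-119148367: gctgcggtctttgaatacCCTGGGAACtga
Abcd2, minus strand, chr15:91148986-91149015: acaatccaaactgcagaaAAGACATCCtaa

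Depth limited every value in mitochondria. Transcripts of the mitochondrial chromosome took 95.3% and 95.5% of the signal in mitochondria replicates 1 and 2, against 51.1% and 59.3% in the non-mitochondrial fraction, so that 49420 and 58238 reads of nuclear protein-coding genes were left in the mitochondria libraries. In those libraries 1 read was worth 8.32 and 6.90 units of the deposited normalised count. The 37 members together had 360 and 389 reads. None of the 10 brown adipocyte markers was at 0 in both libraries of a fraction. The mitochondria libraries stood apart from each other in markers of other tissues: the 17 liver markers found summed to 15686 units in replicate 1 and 1547 in replicate 2, against 606 and 276 in the non-mitochondrial fraction, and the 10 skeletal muscle markers to 3596 and 1084, against 345 and 732. The 8 macrophage markers summed to 400 and 399 units in mitochondria, against 104 and 95. The 8 endothelial markers summed to 108 and 7, against 984 and 1059, with Egfl7 and Emcn at 0 in mitochondria. The brown adipocyte markers summed to 2979 and 8164 in mitochondria, against 14243 and 12711, and the 6 blood markers found summed to 250 and 635, against 296 and 626, with S100a9 at 0 in mitochondria. Which part RNA of other tissues had in the results was not tested.

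As a group, peroxisome genes took about the same share of the nuclear protein-coding signal in both fractions, and no difference between the fractions was found on that scale for the set as a whole. They took 0.729% (95% Wilson interval 0.657 to 0.807) and 0.668% (0.605 to 0.737) of the nuclear protein-coding signal in mitochondria, against 0.726% and 0.633% for the non-mitochondrial libraries. The means were 0.699% ± 0.0435 and 0.679% ± 0.0659 (SD, n = 2 each), and the groups overlapped (two-sided exact permutation test, p = 0.667, where 0.333 is the smallest p that 2 libraries against 2 allow). The difference of 0.0191 percentage points was smaller than either SD, and without Crot the means were 0.671% and 0.673%. The result depends on the denominator: of the signal of all nuclear genes, noncoding ones and pseudogenes included, the members took 0.0289% and 0.0345% in mitochondria against 0.601% and 0.516% elsewhere, with no overlap (exact permutation test, p = 0.333). In bulk RNA of this kind, fewer cells of a type and less RNA per cell cannot be told apart.

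Gene by gene, 31 of the 37 members had a mean of at least 10 units over the 4 libraries and were tested with limma on log2(normalised count + 1). Pex10, Pex26, Pex11g, Pxmp2, Acot8 and Hacl1 fell below that level. At a Benjamini-Hochberg adjusted p under 0.05, 0 members were higher in mitochondria (0.803% of all tested genes) and 0 were lower (4.41%). Without adjustment, Crot was the 1 member higher at p under 0.05 by limma (3.2% of all tested genes), while 5 members were lower (14.9%), namely Abcd2, Gnpat, Pex6, Ehhadh and Abcd3. The quasi-likelihood test of edgeR on the recovered reads called 0 members higher (1.64% of all tested genes) and 2 lower (4.02%), Gnpat and Abcd2. Both mitochondria libraries lay above both others for 2 members, Crot and Pecr (8.59%), and below them for 19 of the 31 (52.1%).

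The deposited scaling places most nuclear genes lower in mitochondria: the median log2 fold change, mitochondria over the non-mitochondrial fraction, was -1.24 over the 8178 nuclear genes tested. The members' median was -1.02, which is 0.22 above that of nuclear genes, and 17 of 31 lay above the nuclear median, where 50% lie by definition. The offset was small and turned with the method. With edgeR the members' median was -0.90 and that of nuclear genes -0.81, and among genes with a mean of at least 50 units the medians of the log2 fold change were -0.998 for 16 members and -0.975 for nuclear genes. A log2 fold change above 0 was found for 6 of 31 members (18.5% of tested nuclear genes).

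**Figure D1:**
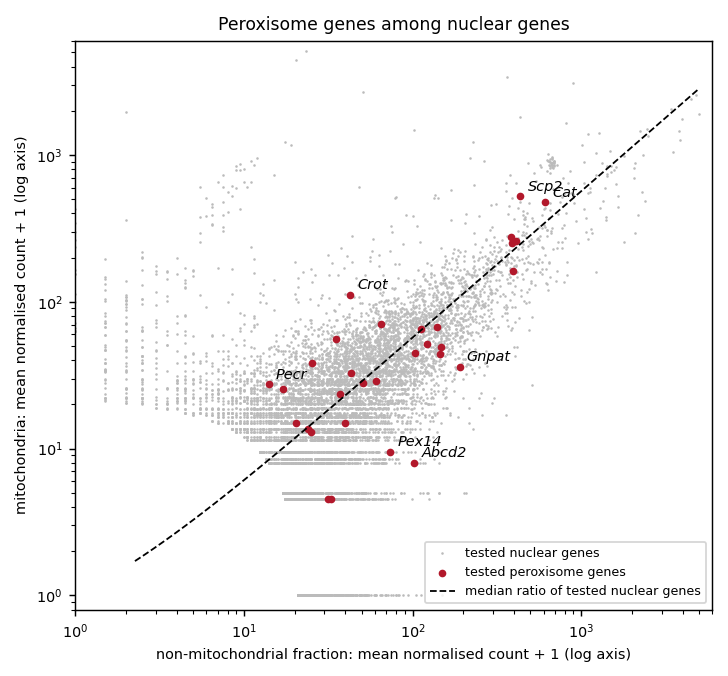
Mean normalised count + 1 in mitochondria (vertical, log axis) against the non-mitochondrial fraction (horizontal, log axis) for the tested nuclear genes (grey) and the 31 tested peroxisome genes (red); the dashed line marks the median ratio of 0.566, and 15 nuclear genes with a mean above 6000 lie outside the axes. The red points scatter on both sides of the line within the grey cloud, with Crot among the highest above it and Abcd2 and Gnpat below it.

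A ratio of levels was then set beside its counting error, with the level in mitochondria taken from the pooled reads of both libraries. A comparison with 1 would carry the scaling, so each ratio was read against 0.566, the median ratio of the tested nuclear genes, called the typical ratio here. The 95% exact Poisson interval, which covers counting error only, lay wholly above the typical ratio for 9 of the 31 members (19.8% of tested nuclear genes): Crot, Pecr, Far1, Acaa1b, Decr2, Scp2, Acaa1a, Cat and Ech1. It lay wholly below for 5 (12.7%): Abcd3, Pex6, Gnpat, Pex14 and Abcd2. It held the typical ratio for the other 17. Among genes with a mean of at least 50 units, 5 of 16 members lay above (25.7% of nuclear genes at that level) and 4 below (21.6%).

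**Figure D2:**
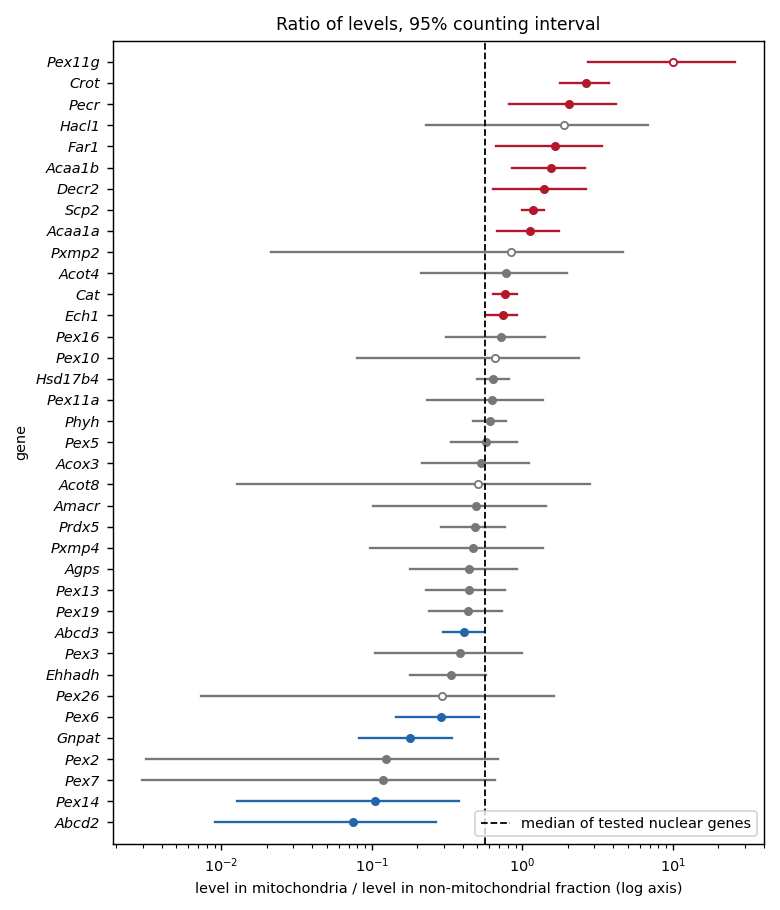
Ratio of the level in mitochondria to the level in the non-mitochondrial fraction (log axis) for the 37 peroxisome genes, with 95% exact Poisson intervals for the mitochondrial reads as bars. The dashed line is the median of 0.566 over tested nuclear genes, red and blue mark intervals wholly above and below it, grey marks intervals that hold it, and open circles mark the 6 genes not tested; Crot and Pex11g are highest and Abcd2 lowest.

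Crot, carnitine O-octanoyltransferase, moves medium-chain acyl groups from coenzyme A to carnitine so that the products of peroxisomal beta-oxidation can leave the organelle. Its gene lies on the minus strand of chr5:8966033-8997324. Crot stood at 125 and 97 units in mitochondria, from 15 and 14 reads, while the non-mitochondrial libraries held 41 and 42 units. Both mitochondria values were clearly above both others. The ratio of levels was 2.64 (95% exact Poisson interval 1.77 to 3.79), which is 4.66 times the typical ratio. The log2 fold change was 1.39 (SE 0.43), with an adjusted p of 0.263 by limma and 0.0638 by edgeR, so Crot was not called in either test. Crot ranked first of the 31 tested members, and 465 of the 8178 nuclear genes had a log2 fold change above it, which puts it at the 94.3rd percentile. Among the 2444 nuclear genes with a mean of at least 50 units it was at the 93.2nd percentile, with 166 genes above it.

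The call for Crot turned on the set of genes tested and on single libraries. The log2 fold change was 1.21 without mitochondria replicate 1 and 1.57 without mitochondria replicate 2, with limma adjusted p of 0.0296 and 0.0207, where the lone mitochondria library was assumed to vary like the non-mitochondrial ones. Without non-mitochondrial replicate 1 or 2 the adjusted p was 0.844 and 0.84, also by limma. With no filter on low values it was 0.0441 by limma. Of the gene's exon sequence, 166 bases overlap exons of other genes on the opposite strand, and 39 bases overlap such exons on the same strand. Whether counting used the strand is not given.

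The other members of the acyl transfer group are thioesterases, which release free acids from acyl-CoA. Acot4 was at 0 and 28 units in mitochondria and 22 and 17 elsewhere. Acot8 was at 0 and 7 units in mitochondria and 4 and 11 elsewhere. Neither separated the fractions, and Crot held 29 of the group's 34 mitochondrial reads. The group took 0.0316% ± 0.00168 of the nuclear protein-coding signal in mitochondria and 0.0107% ± 0.000466 elsewhere (SD, n = 2 each), a ratio of 2.95 that did not overlap between fractions (exact permutation test, p = 0.333). Without Crot the shares were 0% and 0.00869% against 0.00403% and 0.00442%, and the fractions overlapped.

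Among the 6 core enzymes of the beta-oxidation spiral, Scp2 set the total of the group. The core enzymes took 0.241% ± 0.0137 in mitochondria and 0.178% ± 0.0261 in the non-mitochondrial fraction (SD, n = 2 each), a ratio of 1.35 with no overlap (exact permutation test, p = 0.333). Without Scp2 the other 5 took 0.0992% and 0.127% in mitochondria and 0.122% and 0.0982% elsewhere, so the fractions overlapped and the ratio was 1.03. Both mitochondria libraries were below both others for 3 of the 6 genes (52.1% of all tested genes). Scp2 encodes a sterol carrier protein and, from a longer transcript, the thiolase for branched chains. It stood at 624 and 421 units in mitochondria, from 75 and 61 reads, and at 480 and 390 elsewhere. The fractions overlapped, and the ratio was 1.18 (0.990 to 1.40), with a log2 fold change of 0.24 (SE 0.47) that fell to -0.04 without mitochondria replicate 1. Of the 75-base stretches of the Scp2 transcript, 36.7% occur in other genes as well, so reads that could come from these were open to exclusion in counting. Without Scp2 the whole set of 37 took 0.570% of the signal in mitochondria and 0.611% elsewhere.

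Hsd17b4, the multifunctional protein that hydrates and dehydrogenates branched and very long chains, was at 216 and 304 units in mitochondria and 455 and 368 elsewhere. Both mitochondria libraries were below both others, and the ratio of 0.642 (0.500 to 0.811) held the typical one. Ehhadh, the bifunctional enzyme of straight-chain oxidation, was at 42 and 55 units in mitochondria and 179 and 113 elsewhere. Its ratio of 0.336 (0.179 to 0.574) reached up to the typical ratio. The log2 fold change of Ehhadh was -1.55 (SE 0.50, limma adjusted p = 0.271). Acox3, the oxidase for branched chains that opens the spiral, was at 33 and 21 units in mitochondria and 44 and 55 elsewhere, with a ratio near the typical one.

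Acaa1a and Acaa1b encode a pair of closely related thiolases that cleave the shortened chain at the end of each round, and their 30-base coding ends are the same. Acaa1b was at 75 and 35 units in mitochondria and 39 and 29 elsewhere, with overlapping fractions and a ratio of 1.55 (0.849 to 2.61). Acaa1a was at 42 and 97 units in mitochondria and 71 and 57 elsewhere, with a ratio of 1.12. The replicate that was high differed between these genes. Of their 75-base stretches, 27.3% for Acaa1a and 37.8% for Acaa1b occur in other genes, so reads from these were open to exclusion in counting. The log2 fold change of Acaa1a was 0.60 without mitochondria replicate 1 and -0.59 without mitochondria replicate 2.

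The auxiliary enzymes prepare double bonds and branches for the spiral, and among them Pecr had the pattern most like that of Crot. Pecr, the peroxisomal trans-2-enoyl-CoA reductase at chr1:72259167-72284314 on the minus strand, stood at 25 and 28 units in mitochondria and at 13 in both non-mitochondrial libraries. The fractions did not overlap, but only 3 and 4 reads stood behind the mitochondrial values. The ratio was 2.03 (0.817 to 4.19), and the log2 fold change was 0.97 (SE 0.41) with a limma adjusted p of 0.314, at the 92.6th percentile of nuclear genes.

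Ech1, which shifts double bonds of the chain in peroxisomes and mitochondria, was at 183 and 366 units in mitochondria, from 22 and 53 reads, and at 436 and 330 elsewhere. The fractions overlapped and the mitochondria libraries were further apart than the others. The ratio of 0.739 (0.581 to 0.926) lay above the typical ratio, a place that rested on mitochondria replicate 2. Relative to the nuclear median, the log2 fold change of Ech1 was 0.69, and it was 0.87 without mitochondria replicate 1 and 0.015 without mitochondria replicate 2. Decr2, the peroxisomal 2,4-dienoyl-CoA reductase, was at 67 and 7 units in mitochondria, from 8 reads and 1 read, and at 25 and 24 elsewhere. Its log2 fold change was -1.67 without mitochondria replicate 1 and 1.42 without mitochondria replicate 2, so that 1 library decided its side. Amacr, the racemase that prepares branched chains, was at 25 and 0 units in mitochondria and 21 and 25 elsewhere. The auxiliary group took 0.0863% ± 0.0188 of the signal in mitochondria and 0.0694% ± 0.0105 elsewhere (SD, n = 2 each), and the fractions overlapped (exact permutation test, p = 0.667).

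**Figure D3:**
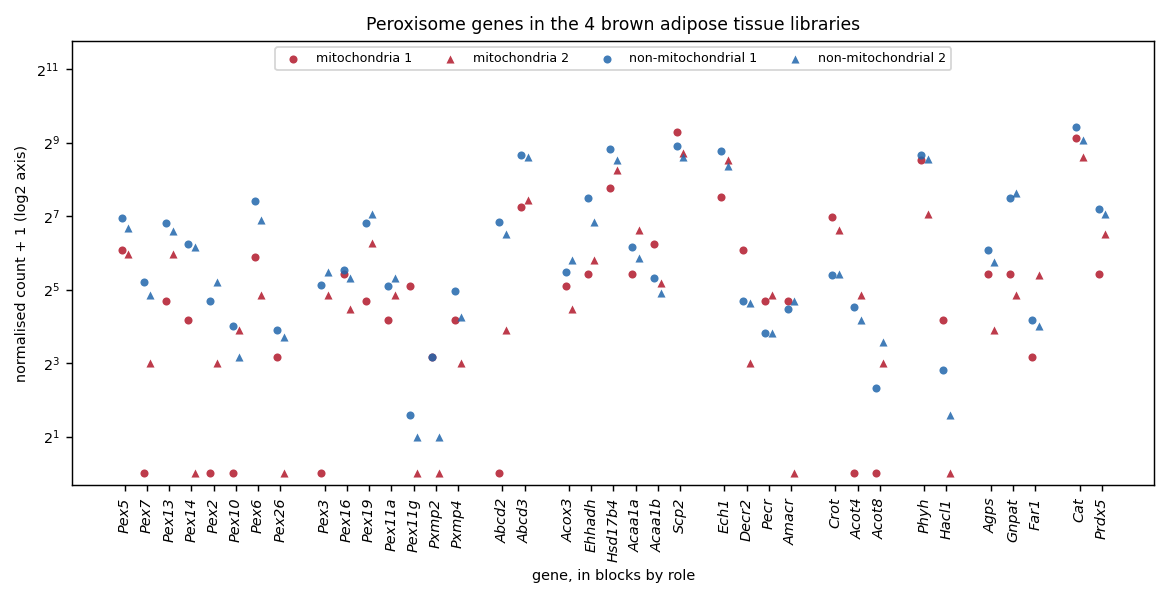
Normalised count + 1 (log2 axis) of each of the 37 peroxisome genes in the 4 libraries, in blocks by role from matrix protein import on the left to peroxide removal on the right; red marks mitochondria, blue the non-mitochondrial fraction, circles replicate 1 and triangles replicate 2. Crot and Pecr have both red points above both blue ones among the tested genes, Abcd2 and Gnpat have both well below, and 13 genes have a red point at 0 reads.

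For the peroxins that assemble the organelle, 0 were called higher (0.803% of all tested genes) or lower (4.41%) by limma, and 1 of 10 was lower at an unadjusted p under 0.05 (14.9%). All 10 tested peroxins had a negative log2 fold change, as did 81.5% of tested nuclear genes. Their median was -1.62, and 3 of them lay above the nuclear median. Pex16 alone turned positive when libraries were scaled by the median of ratios or to equal nuclear coding totals. The 21 other members tested had a median of -0.83, with 14 above the nuclear median. The difference between the groups is a description that rests on few reads: 8 import genes had 21 and 26 reads in all in the mitochondria libraries.

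Pex5, the receptor for PTS1, was at 67 and 62 units in mitochondria and 122 and 101 elsewhere, and its ratio of 0.575 was almost the typical one. Pex7, the receptor for the N-terminal signal PTS2, was at 0 and 7 units in mitochondria and 36 and 28 elsewhere. Pex14 is the docking partner of both receptors at the membrane. It was at 17 and 0 units in mitochondria and 74 and 71 elsewhere, with a ratio of 0.104 (0.0126 to 0.376) from 2 reads. Pex13, which docks beside Pex14, was at 25 and 62 units in mitochondria and 111 and 95 elsewhere. Each of these 4 genes had both mitochondria libraries below both others, as did 52.1% of all tested genes.

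Pex6 is an ATPase that, with Pex26 as its membrane anchor, pulls Pex5 out of the membrane for another round. Pex6 was at 58 and 28 units in mitochondria and 170 and 119 elsewhere, with a ratio of 0.287 (0.143 to 0.514) and a log2 fold change of -1.79 (SE 0.60, limma adjusted p = 0.276). Pex26 was at 8 and 0 units against 14 and 12. Pex2 and Pex10 are ubiquitin ligases of the same cycle. Pex2 was at 0 and 7 units in mitochondria and 25 and 36 elsewhere, and Pex10 was at 0 and 14 against 15 and 8. The import group took 0.0436% ± 0.00151 of the nuclear protein-coding signal in mitochondria and 0.0811% ± 0.00973 elsewhere (SD, n = 2 each), a ratio of 0.538 with no overlap (exact permutation test, p = 0.333).

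Pex3, Pex16 and Pex19 insert membrane proteins, and the Pex11 proteins elongate and divide the organelle. Pex16 was at 42 and 21 units in mitochondria and 45 and 39 elsewhere, the one tested peroxin whose fractions overlapped. Pex3 was at 0 and 28 units against 34 and 44, Pex19 at 25 and 76 against 111 and 131, and Pex11a at 17 and 28 against 33 and 39. Pex11g had 33 and 0 units in mitochondria and 2 and 1 elsewhere. Its ratio of 10.1 (2.74 to 25.8) was the highest of the set but rested on 4 reads of mitochondria replicate 1, and 47.4% of its 75-base stretches occur in other genes. The membrane proteins Pxmp2 and Pxmp4 were at 8 and 0 against 8 and 1, and at 17 and 7 against 30 and 18. This group took 0.0345% and 0.0397% of the signal in mitochondria and 0.0408% and 0.0431% elsewhere, a ratio of 0.885 with no overlap. The fractions overlapped once Pex16, Pex19, Pxmp2 or Pxmp4 was left out. A ratio of shares is not set against the typical gene. The ratio of summed levels was 0.995 times the typical ratio for this group. It was 0.604 times for import, 0.580 for ether lipid synthesis, 1.515 for core beta-oxidation and 3.31 for acyl transfer.

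Of the pair of transporters that carry acyl-CoA into the organelle, Abcd2 had the lowest log2 fold change of all tested members and Abcd3 one close to the nuclear median. Abcd2, which prefers very long and polyunsaturated chains and lies at chr15:91145871-91191799 on the minus strand, was at 0 and 14 units in mitochondria, from 0 and 2 reads, and at 113 and 90 units elsewhere. The fractions were far apart. The ratio was 0.0743 (0.00900 to 0.269), and the log2 fold change was -4.72 (SE 1.56) with an adjusted p of 0.273 by limma and 0.0344 by edgeR. The log2 fold change is sensitive to the library with 0 reads: it was -2.76 without mitochondria replicate 1 and -6.67 without mitochondria replicate 2. Abcd3, the most abundant of the transporters and a standard protein marker of peroxisomal membranes, was at 150 and 173 units in mitochondria, from 18 and 25 reads, and at 402 and 386 elsewhere. Replicates of each fraction were close, and the ratio of 0.412 (0.298 to 0.555) lay just under the typical one. The log2 fold change was -1.28 (SE 0.41, limma adjusted p = 0.271). The pair took 0.0415% of the nuclear protein-coding signal in mitochondria and 0.0776% elsewhere.

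Ether lipid synthesis begins in the peroxisome with Gnpat, which acylates dihydroxyacetone phosphate, and Agps, which exchanges the acyl group for an alcohol made by Far1. Gnpat, at chr8:124863033-124890057 on the plus strand, was at 42 and 28 units in mitochondria, from 5 and 4 reads, and at 180 and 198 units elsewhere. Both mitochondria libraries were far below both others. The ratio was 0.180 (0.0822 to 0.341), and the log2 fold change of -2.43 (SE 0.46) had an adjusted p of 0.144 by limma and 0.0311 by edgeR. Agps was at 42 and 14 units against 66 and 53. Far1 was at 8 and 41 units in mitochondria, from 1 read and 6 reads, and at 17 and 15 elsewhere, with a ratio of 1.65. Its log2 fold change was 1.31 without mitochondria replicate 1 and -0.92 without mitochondria replicate 2. The group took 0.0215% ± 0.00125 of the signal in mitochondria and 0.0414% ± 0.000849 elsewhere (SD, n = 2 each), a ratio of 0.519 with no overlap (exact permutation test, p = 0.333). Without Gnpat the shares were 0.0122% and 0.0137% against 0.0129% and 0.0107%, and the fractions overlapped.

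Cat, catalase, which breaks down the hydrogen peroxide that peroxisomal oxidases form, was the highest of the members per length of exon in the non-mitochondrial fraction, at 234 units per kilobase. It was at 558 and 393 units in mitochondria, from 67 and 57 reads, and at 682 and 539 elsewhere. The fractions overlapped, and the ratio of 0.766 (0.637 to 0.914) lay above the typical ratio. Prdx5, a peroxiredoxin found in peroxisomes, mitochondria and cytosol, was at 42 and 90 units in mitochondria and 146 and 133 elsewhere, with a ratio of 0.487. Phyh opens the alpha-oxidation of phytanic acid. It was at 366 and 131 units in mitochondria, from 44 and 19 reads, and at 407 and 374 elsewhere, with a ratio of 0.609. Hacl1, which cleaves the product in the same pathway, was at 17 and 0 units against 6 and 2, and 54.2% of its 75-base stretches occur in other genes.

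**Figure D4:**
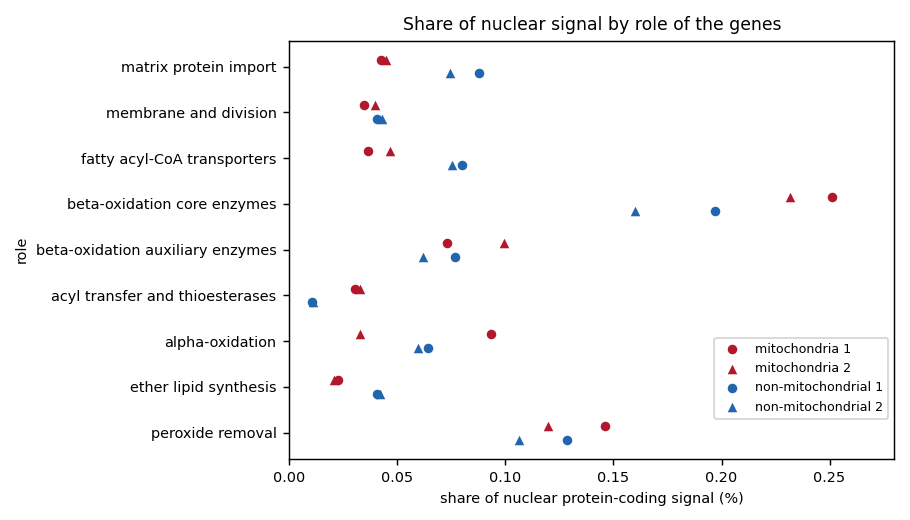
Share of nuclear protein-coding signal, in percent, taken by each role group of the peroxisome genes in each library; red marks mitochondria, blue the non-mitochondrial fraction, circles replicate 1 and triangles replicate 2. Import, membrane and division, transporter and ether lipid genes have both red points below both blue ones, and core beta-oxidation and acyl transfer genes have both above. Ether lipid genes lose the separation without Gnpat, core beta-oxidation genes without Scp2 and acyl transfer genes without Crot. Membrane and division genes lose it without Pex16, Pex19, Pxmp2 or Pxmp4, and the ratio of their summed levels was 0.995 times the typical ratio. The 2 mitochondria libraries are furthest apart for alpha-oxidation.

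Spread between the mitochondria libraries was wide for members with few reads. Between these libraries 24 of the 37 members differed by more than 1 on the log2 scale, with a median difference of 1.28, against 3 of 37 and 0.311 between the non-mitochondrial libraries. The number of members at 0 reads in 1 mitochondria library was 13, and 0 members were at 0 in both. Of the 31 tested, 6 had at most 3 reads in both together (30.1% of tested nuclear genes). At least 10 reads in each mitochondria library were found for 7 members, namely Crot, Abcd3, Hsd17b4, Scp2, Ech1, Phyh and Cat.

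The members whose coding sequence ends in textbook PTS1 codons had a median log2 fold change of -0.55 over the 9 tested, against -1.21 over the 22 others. Among the 22 are all 10 tested peroxins, whose median was -1.62, so the comparison is in part that of peroxins with enzymes. The 9 with the codons include Crot and Pecr at the top and Gnpat near the bottom, and this comparison is a description with no test.

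Of 46 further peroxisome genes listed, 41 were in the table and 34 were tested, with 0 called higher (0.803% of all tested genes) and 0 called lower (4.41%) by limma. At an unadjusted p under 0.05, limma gave 2 higher (3.2%) and 2 lower (14.9%), and edgeR called 0 higher (1.64%) and 1 lower (4.02%). Their median log2 fold change was -0.86, and 22 of 34 lay above the nuclear median. They took 0.958% and 0.558% of the nuclear protein-coding signal in mitochondria and 0.945% and 0.845% elsewhere. Mitochondria replicates decided their side of the nuclear median, since the median relative to it was -0.45 without replicate 1 and 0.88 without replicate 2, against 0.096 and 0.14 for the members. Acsl1, an acyl-CoA synthetase shared with mitochondria and endoplasmic reticulum, was at 541 and 421 units against 2510 and 2264 and was the gene edgeR called lower, with an adjusted p of 0.0233.

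The 3 highest of these other genes are enzymes best known from liver. Uox, urate oxidase, was at 258 and 41 units in mitochondria, from 31 and 6 reads, and at 8 and 0 elsewhere. Baat, which joins bile acids to amino acids, was at 50 and 21 units against 1 and 1, from 6 and 3 reads. Hao1, a hydroxyacid oxidase, was at 67 and 0 units against 1 and 0. All 3 were higher in mitochondria replicate 1, where the liver markers took 3.81% of the nuclear protein-coding signal, than in replicate 2, where they took 0.384%, while in the non-mitochondrial fraction these markers took 0.0940% and 0.0436%. The part of liver RNA in these values was not tested. By the log2 fold change of limma, which a library at 0 reads drives, the lowest were Ide at 0 and 55 units against 106 and 117, and Hsd17b11 at 8 and 0 against 32 and 36.

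Genes of mitochondrial fatty acid oxidation and of the endoplasmic reticulum were set beside the members. Of 21 genes of mitochondrial fatty acid oxidation, 20 were tested, with a median log2 fold change of -1.17. By limma 0 were called higher (0.803% of all tested genes) and 0 lower (4.41%). They took 0.887% and 2.60% of the nuclear protein-coding signal in mitochondria and 2.30% and 2.01% elsewhere. Of 27 genes of endoplasmic reticulum chaperones and translocon, 25 were tested, with a median of -0.29. Limma called 0 of them higher (0.803% of all tested genes) and 0 lower (4.41%). They took 0.743% and 0.382% in mitochondria and 0.354% and 0.352% elsewhere. The order of the lists turned with the mitochondria library: relative to the nuclear median, mitochondrial oxidation was at 0.49 and the endoplasmic reticulum at -0.044 without mitochondria replicate 1, and at -0.79 and 1.32 without mitochondria replicate 2. The differences between the lists were not tested.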

How the data were processed

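The deposited table holds 17259 genes and 4 libraries. Each deposited value is a signal, namely a gene count over a DESeq2 size factor, rounded by the authors and called a normalised count here. By the submitters' processing notes, reads were trimmed with Trimmomatic 0.39, aligned to mm10 (GRCm38) with STAR 2.7.10a, counted with featureCounts 2.0.2 and scaled with DESeq2 1.30.1. In the study's methods, reads at several genes or positions were left out and mitochondrial samples had an adjusted fragmentation, so library preparation and fraction cannot be told apart.

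In the mitochondria libraries every value (100%) was a whole number of reads times 8.32 or 6.90 units, giving 26288871 and 24910434 reads. Reads were not recovered in the non-mitochondrial libraries (totals 1590096 and 1905303 units), so depth behind their units is unknown. Genes with a mean of at least 10 were compared as log2(value + 1) with limma 3.58.1 in R 4.3.3, Benjamini-Hochberg adjusted over 8215 genes. The count test, edgeR 4.0.16 on recovered reads, used the deposited values as reads where none were recovered and kept the deposited scaling. A gene with 1 mitochondria library at 0 gets a log2 fold change that depends on the pseudocount. Intervals cover counting error only, and 3 reads over both mitochondria libraries are 11.3 units. Shares use nuclear protein-coding genes.

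All 37 members are named. Libraries are given one by one for Crot, for members called, with at least 10 reads in both mitochondria libraries or separated by over 1 (log2) from the nuclear median, and for others that describe a role; for the other peroxisome genes, the calls and the 3 highest and lowest, of which 1 is not reported here. Members, lists and tests were chosen with earlier results of these data known. Alternatives were another pseudocount, filters, 4 scalings, a trend, the replicate block, edgeR and each library left out. A search for the N-terminal signal was not made.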

Additional observations from a re-analysis of the deposited data

How the results depend on the processing

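Crot had a positive log2 fold change in every setting run but 1, each library scaled to its total over all genes, and ranked first of the members in all but that setting (rank 5) and mitochondria replicate 1 left out (rank 2). With a positive fold change its adjusted p ran from 0.0207 to 0.844 (limma and edgeR). With no filter on low values Crot was 1.39 and past the threshold, with 2 members called higher (Crot, Pecr; 0.829% of all 17259 genes) and 2 lower (Abcd3, Gnpat; 20.8%). Counts in the other lists were then 1 higher and 6 lower among the other peroxisome genes, 1 lower for the endoplasmic reticulum and 1 lower for mitochondrial oxidation. Scaling to the total over all genes, which mitochondrial transcripts fill, turned Crot to -4.42 (limma adjusted p = 2.13e-06) and called 31 members, 30 other peroxisome genes, 25 endoplasmic reticulum and 20 mitochondrial oxidation genes lower, as it did 97.1% of all tested genes. There the nuclear median was -4.94, and the list medians relative to it were -0.68, -0.65, -0.48 and -2.34. In that setting mitochondria values were divided by 125 and 98.4 before 1 was added, so relative values there also carry the pseudocount. The members' median relative to the nuclear one was 0.036 with pseudocount 10, -0.023 at a mean of at least 50, 0.27 with no filter, -0.086 with edgeR and -0.056 with genes of at most 3 reads at their bound. Limma with trend called 1 member (Gnpat) and 1 other peroxisome gene lower (5.5% of all tested genes), and edgeR called 2 (Gnpat, Abcd2) and 1 (4.02%). With all nuclear genes as denominator, among them copies of mitochondrial sequence, the share differed by -0.527 percentage points.

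Leaving out 1 library at a time gave 1.21 to 1.57 for Crot, 0 to 3 members higher, 0 to 12 lower, a relative median of 0.031 to 0.19 and a share difference of -0.0276 to 0.0658. For the other peroxisome genes it gave 0 to 4 higher, 0 to 17 lower and -0.45 to 0.88. For the endoplasmic reticulum it gave 0 to 1, 0 to 8 and -0.044 to 1.32, and for mitochondrial oxidation 0 to 1, 0 to 18 and -0.79 to 0.49. Without mitochondria replicate 1 or 2, 5.68% and 7.57% of all tested genes were called higher and 41.1% and 47% lower, and without a non-mitochondrial replicate 0 of 8215 were called (limma, 500 and 493 at an unadjusted p under 0.05). Calls with 1 mitochondria library rest on the spread of the others. Leaving out each member of a role group in turn, chosen after seeing the data, ended the separation of core beta-oxidation without Scp2, of acyl transfer without Crot and of ether lipid synthesis without Gnpat, and of the membrane group without Pex16, Pex19, Pxmp2 or Pxmp4, while the import and transporter groups kept it without any 1 member. Scalings over nuclear genes (TMM, median of ratios, equal coding totals) moved the nuclear median to between -0.88 and -0.66 and the sign of at most 4 members (Decr2, Cat, Ech1, Pex16). Without mitochondria replicate 1, the members Acox3, Decr2, Pex3, Acot4, Pex13, Pex19, Phyh, Pxmp4 and Pex16 changed side of the nuclear median, as did Prdx5, Agps and Amacr without mitochondria replicate 2, Ehhadh and Agps without non-mitochondrial replicate 1 and Pxmp4 without non-mitochondrial replicate 2. With the replicate block, 0 members and 0 of 8215 genes were called (944 at an unadjusted p under 0.05, limma) and Crot had an adjusted p of 0.456 (limma). Deviations of equal replicate numbers correlated at 0.112 over 8178 genes, from 1 pair of differences, and nothing in the labels says that numbers mark a shared animal. Of the relative log2 fold changes of single members, 352 stayed within 1 SE of the reported value and 67 moved beyond it. The trend and the replicate block leave every fold change as it was, so their values could only count among the 352. The relative log2 fold change of Crot was 2.62 and ran from 0.52, with each library scaled to its total, to 2.69. The value of 0.52 carries the pseudocount as well, since mitochondria values there were divided before 1 was added. The cause of the other shifts was not tested.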
